A study of Homo sapiens with 24 samples.

Results

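WT clone 4 and WT clone 5 of SW480 are a pair of cell clones of the same genotype, and the comparison between them shows how far the transcriptome of this line moved without any change at *CTNNB1*, the gene of β-CATENIN. SW480 is an established colorectal carcinoma line with truncated APC. The members were the libraries titled for these clones, 4 of the 24 libraries of the series, with 2 per clone, and all genes were read in them. In the study, exon 7 of *CTNNB1* was deleted on both alleles by CRISPR/Cas9 in KO clones of SW480, HT29 and HCT116 cells, 2 WT and 2 KO clones of each line were grown under the same conditions, and poly(A) RNA was sequenced in rounds A and B. Per the paper, the WT clones had also been exposed to CRISPR/Cas9 and cloned in the same way, but kept the wild-type sequence at *CTNNB1*. Both SW480 WT clones carry the label CTNNB1 wild-type, and KO clones 17 and 21 of SW480 are given beside them as further clones of the line. Each group was therefore 1 clone, and the 2 libraries of a clone were 2 rounds with that clone. P-values measure the spread between rounds, not the spread over many SW480 clones.

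β-CATENIN is the nuclear effector of canonical WNT signalling. APC is part of the complex that degrades it, so that cells with truncated APC, such as SW480, transcribe TCF/LEF target genes without a WNT signal. SW480 is also known for a mixture of epithelial features (keratins, EPCAM) and mesenchymal ones (vimentin, ZEB1), and adherens and tight junctions, built from E-cadherin and claudins, are features by which epithelial cells are told from mesenchymal ones. Carcinoma lines of this kind are aneuploid, and cells cloned from 1 culture can carry different chromosomes.

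The 4 libraries held between 25857212 and 27951928 reads on genes. Values are normalised counts, which are reads per gene divided by 1 size factor per library. The measured level of *CTNNB1* was 50940 and 50570 normalised counts in rounds A and B of clone 4, and 43114 and 43246 in clone 5. Both clones thus expressed the gene at a like level, with a log2 difference of 0.23 ± 0.08 (SE, clone 4 minus clone 5; limma adjusted p = 0.075). The KO clones of SW480 held 839 to 1312 normalised counts of it. Both WT clones also held the epithelial markers *EPCAM*, *KRT8*, *KRT18*, *KRT19* and *CDX2*. Low levels were found for *CDH1* and *VIL1*, at up to 85.9 and 40.5 normalised counts, and *LGALS4* did not exceed 3.68. Of 12 blood and immune markers, 9 stayed under 10 normalised counts in all 4 libraries, *PTPRC*, *CD3D* and *MS4A1* were at 0 in each, and the summed level ranged from 69.8 to 81.9 in clone 4 and from 71.4 to 72.4 in clone 5. Of 11 fibroblast, endothelial and muscle markers matched, 9 were under 10, *LUM*, *POSTN*, *FAP* and *CDH5* were at 0, and the sums were 115 and 127 in clone 4 against 72.4 and 99.4 in clone 5, most of it *DES*.

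The clones differed at 312 of 16275 tested genes (1.92%), where a gene was called if its limma adjusted p was under 0.05 and its log2 difference over 1 in size. Of these, 99 genes (0.608% of those tested) were higher in clone 4 and 213 genes (1.31%) higher in clone 5. The median difference of all tested genes was 0.01, so the table as a whole was not shifted. In all 312 genes the values of the clones did not overlap, which was also true of 48.2% of all tested genes. Many calls rested on low levels, as 207 of the 312 genes had a mean under 100 normalised counts. Of the called genes, 158 overlap another annotated gene, counted over whole gene spans with introns. Since the library kit does not keep the strand, reads from a stretch shared by overlapping genes cannot be told apart. How many of all tested genes had such a low mean or such an overlap was not computed, so neither count sets the called genes apart. A difference of more than 2 on the log2 scale was found for 79 genes and of more than 3 for 26 genes. The same test between rounds A and B over both clones called 19 genes (0.117%; 1901 at an unadjusted p under 0.05), and 2 of them were also called between the clones. The count for the clones was not evenly supported by the libraries: without round B of clone 5, 192 genes were called, 58 higher in clone 4 and 134 higher in clone 5, and without round A of clone 5 these were 138 and 140, so that the excess in favour of clone 5 rested on that library.

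**Figure D1:**
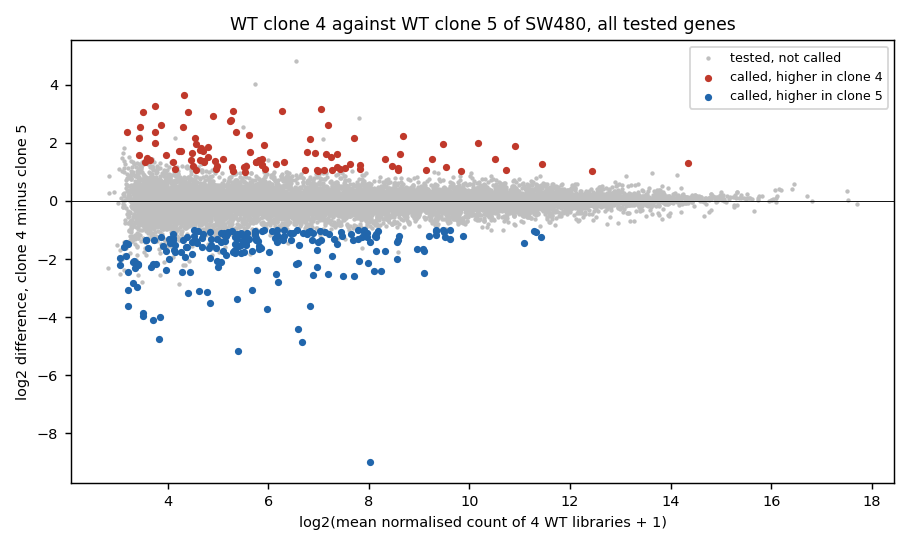
Log2 difference between WT clone 4 and WT clone 5 of SW480 (y axis) against the mean level of a gene in the 4 WT libraries (x axis, log2 of normalised counts plus 1), with 1 point per tested gene. The 99 genes higher in clone 4 (red) and the 213 higher in clone 5 (blue) lie at low and at high levels, and most of the 16275 tested genes lie near 0.

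HT29 and HCT116 gave the same kind of comparison with other libraries. Between the WT clones of HT29, 1181 of 15102 tested genes were called (7.82%), and between those of HCT116, 230 of 15535 (1.48%). These counts depended on single libraries and on the fit, and so did their order: leaving out 1 library gave 461 to 501 genes in HT29 and 91 to 138 in HCT116, and with a replicate block HCT116 had 438 called genes and SW480 321. Of the 171 SW480 genes that were also tested in HT29, 50 (29.2%) were called there, which is 5.73% of the 873 HT29 genes, and 6.32% of all genes tested in both lines were called in HT29. Without 1 HT29 library, 26 to 33 genes were shared. Of the 174 tested in HCT116, 12 were called there (6.90% of the SW480 genes and 6.82% of the 176 HCT116 genes), beside 1.25% of all genes tested in both, and 5 to 8 were shared without 1 HCT116 library. In all 3 lines the clones differed at *ETV1*, *AOC1* and *RGS2*. *ETV1* encodes an ETS transcription factor downstream of MAPK signalling, *AOC1* the gut diamine oxidase, and *RGS2* a regulator of G-protein signalling. The values of *ETV1* were 136 and 159 normalised counts in clone 4 and 671 and 528 in clone 5. *AOC1* was at 378 and 323 against 890 and 741, and its limma adjusted p in HCT116 was 0.045. *RGS2* rested on low levels, at 2.02 and 3.68 in clone 4 and 14.5 and 15.7 in clone 5. The overlap of all 3 lines was not rerun without 1 library. Its share of the genes tested in all 3 lines was not computed.

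The gene that set the clones apart most was *TBX18*, a T-box transcription factor of the developing heart, ureter and limb. No read was counted in either library of clone 4, while clone 5 held 446 and 586 normalised counts and the KO clones between 615 and 837. Clone 4 was thus the 1 clone of 4 without it, and its level was at least 178-fold lower than in clone 5, computed against 3 reads per library (limma adjusted p = 1.38e-14). The gene lies on the minus strand at chr6:85397069-85474316 (GRCh37), and its antisense neighbour *TBX18-AS1* overlaps it. Only *DPYD*, the enzyme that breaks down pyrimidines, was also at 0 reads in both clone 4 libraries among called genes, with 26.2 normalised counts as the mean of clone 5. No called gene was at 0 in both libraries of clone 5.

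Other genes shared this pattern, with clone 4 low and the other 3 SW480 clones high. *EFNA5*, an ephrin ligand of Eph receptors, was at 8.09 and 7.35 normalised counts in clone 4, at 97.5 and 135 in clone 5 and at 674 to 768 in the KO clones (log2 difference -3.73 ± 0.18 SE, limma adjusted p = 2.37e-09). *CLDN1*, which encodes the tight junction protein claudin-1, was at 182 and 151 in clone 4 against 945 and 894 in clone 5 and 963 to 1367 in the KO clones (-2.47 ± 0.10 SE, adjusted p = 4.4e-10). *FOXP1*, a forkhead repressor, *GJB2*, the gap junction protein connexin 26, and *CCND2*, cyclin D2, followed the same order. *FOXP1* held 42.5 and 41.4 normalised counts in clone 4 and 220 and 192 in clone 5. *GJB2* held 98.0 and 87.3 against 377 and 445. *CCND2* held 72.8 and 95.6 against 299 and 418. In each of these 6 genes both KO clones were above clone 4 in every library.

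The promoters of the first 3 are shown because these genes ranged from silent or low in clone 4 to high in the other clones, and such promoters are often judged by their CpG content. The windows are the 250 bases before the RefSeq start (GRCh38.p14, each on the minus strand: *TBX18* at chr6:84764599-84764848, *EFNA5* at chr5:107670938-107671187 and *CLDN1* at chr3:190322447-190322696), printed 5′ to 3′ with the dinucleotide CG in capitals.
TBX18: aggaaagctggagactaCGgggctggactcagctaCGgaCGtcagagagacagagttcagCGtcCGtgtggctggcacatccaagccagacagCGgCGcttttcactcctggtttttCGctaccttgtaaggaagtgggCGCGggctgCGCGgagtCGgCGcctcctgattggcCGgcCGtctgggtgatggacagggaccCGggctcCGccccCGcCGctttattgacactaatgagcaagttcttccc
EFNA5: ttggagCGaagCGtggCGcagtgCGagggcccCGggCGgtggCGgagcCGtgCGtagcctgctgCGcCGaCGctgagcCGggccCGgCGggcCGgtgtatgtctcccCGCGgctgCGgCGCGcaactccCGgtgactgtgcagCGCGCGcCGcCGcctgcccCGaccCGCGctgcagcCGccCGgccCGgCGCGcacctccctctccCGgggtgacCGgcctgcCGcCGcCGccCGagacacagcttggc
CLDN1: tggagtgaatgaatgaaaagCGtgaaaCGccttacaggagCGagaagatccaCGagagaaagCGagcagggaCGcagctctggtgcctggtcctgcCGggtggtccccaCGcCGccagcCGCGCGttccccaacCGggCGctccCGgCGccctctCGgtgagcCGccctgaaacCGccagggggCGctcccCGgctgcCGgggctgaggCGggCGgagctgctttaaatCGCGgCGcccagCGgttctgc
The windows hold 20, 41 and 28 CG steps, in that order. Among 27305 promoters of the table the median was 11, and 32.1%, 1.69% and 15.5% of them held as many or more. DNA methylation was not measured, and no such count says what a promoter did in these clones.

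A second set of genes was high in clone 5 alone. *PTPRZ1*, a receptor phosphatase, was at 15.2 and 16.5 normalised counts in clone 4 and at 252 and 165 in clone 5, and did not exceed 1.88 in the KO clones. *VAT1L* was at 80.9 and 108 against 436 and 578, and at 25.2 or less in the KO clones. *SMCO2* and *RNASE1*, a secreted ribonuclease, had the same order, with clone 4 between clone 5 and the KO clones. *RNASE1* was at 24.3 and 45.0 in clone 4, 206 and 193 in clone 5, and 3.76 to 11.2 in the KO clones. *PROX1*, a homeobox factor known as a target of β-CATENIN in colorectal tumours, was at 76.8 and 95.6 in clone 4, a level near the 65.8 to 120 of the KO clones, and at 448 and 472 in clone 5 (log2 difference -2.41 ± 0.18 SE, limma adjusted p = 4.08e-07). Clone 4 was within the range of the KO clones at this gene, and clone 5 was above every other library. Further large differences in the same direction were found for *VXN*, *MCTP1* and *G0S2*, at -4.87, -2.59 and -2.50 on the log2 scale. The KO clones took other places here. *VXN* was at 44.8 to 60.5 in them, between clone 4 and clone 5. *MCTP1* was at 252 and 322 in KO clone 17, within the 220 to 401 of clone 5. *G0S2* was at 1153 and 1288 in KO clone 21, above the 211 and 281 of clone 5.

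The 12 genes with the largest differences in favour of clone 4 differed in function, and for many of them clone 5 held less in round B than in round A. *CPNE8*, a calcium-binding copine, was at 226 and 242 normalised counts in clone 4 and at 43.4 and 14.7 in clone 5 (log2 difference 3.15 ± 0.43 SE, limma adjusted p = 0.00449). *KCNMA1*, the BK potassium channel, was at 628 and 709 against 180 and 112, and *STOM*, stomatin, at 178 and 189 against 52.1 and 32.3. For these 3 genes the KO clones were at or above clone 4. *GNAI1*, an inhibitory G-protein subunit, was at 2896 and 3053 in clone 4, 1127 and 559 in clone 5, and 188 to 270 in the KO clones. *FABP3*, a fatty acid binding protein, was at 2006 and 1641 against 661 and 307. The calls of *GNAI1* and *FABP3* (adjusted p = 0.016 and 0.048) ended without either library of clone 4, with only the WT libraries in the fit, and with no filter on low values. With a replicate block, *GNAI1* was not called either (adjusted p = 0.055 in limma and 0.071 in edgeR). *AMOTL1*, *GDA*, *KIAA1755* and *SLC40A1*, the iron exporter ferroportin, had log2 differences from 1.66 to 2.16. Chosen after its values were seen, *CTSB*, the lysosomal protease cathepsin B, is the called gene with the highest level: 30139 and 28962 normalised counts in clone 4 and 13723 and 10234 in clone 5.

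The move of clone 5 between rounds was broad in these genes. Of the 99 genes higher in clone 4, 79 were lower in round B than in round A of clone 5, with a median log2 difference of 0.50, and 41 were lower in round B of clone 4. Among the 213 genes higher in clone 5, 118 were lower in round B of clone 5, with a median of 0.04. The difference from clone 4 in this set was thus wider in round B.

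**Figure D2:**
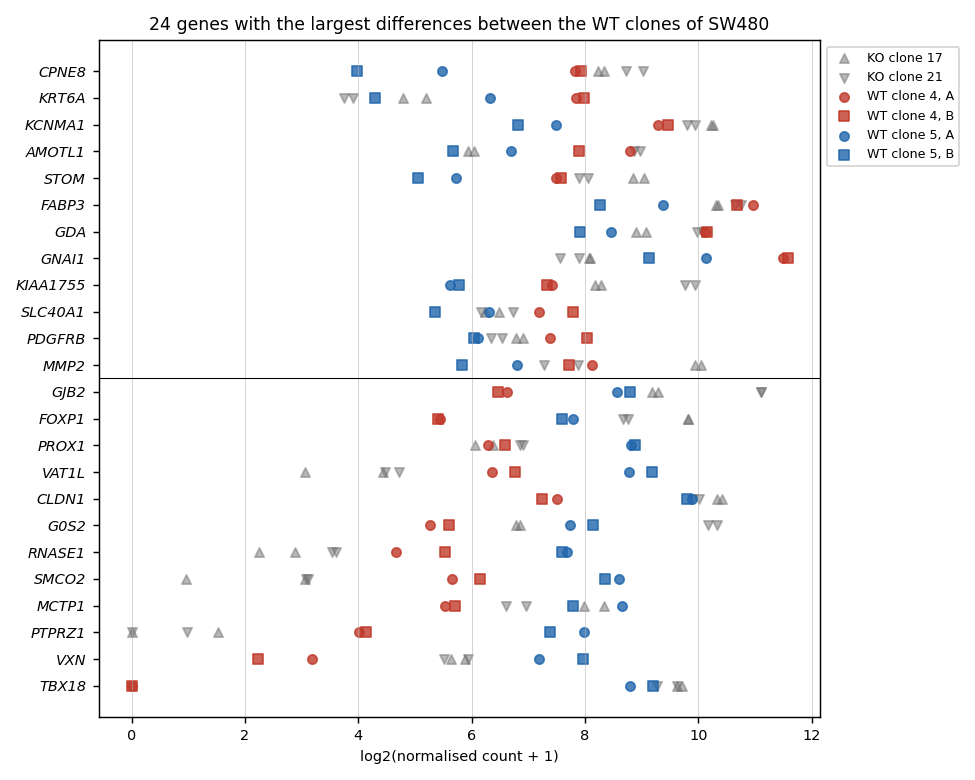
Levels of the 24 genes with the largest differences and a mean of at least 100 normalised counts (x axis, log2 of normalised counts plus 1) in each SW480 library, with WT clone 4 in red, WT clone 5 in blue (circles for round A, squares for round B) and the KO clones in grey. The upper 12 genes are higher in clone 4 and the lower 12 higher in clone 5; *TBX18* sits at 0 in both clone 4 libraries and near 9 in every other.

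The KO clones were nearer to one WT clone at some of these genes and to the other at the rest. Over the 312 called genes, KO clone 17 was nearer on the log2 scale to clone 4 at 150 genes and to clone 5 at 162, and KO clone 21 at 141 and 171. Both KO clones were nearer to clone 4 at 124 genes, both nearer to clone 5 at 145, and they were split at 43. The side varied with the direction of the difference. Of the 99 genes higher in clone 4, KO clones 17 and 21 were nearer to clone 4 at 66 and 67. Of the 213 higher in clone 5 they were nearer to clone 5 at 129 and 139, that is, nearer to the WT clone with the higher level. A gene could pass the filter through the higher WT clone alone, with the lower one near the floor of the scale. The same counts were not made over all tested genes, so they do not set the called genes apart.

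The called junction and polarity genes were higher in clone 5. Of 32 tested genes of this list, 6 were called (18.8%, beside 1.92% of all tested genes), and all 6 were higher in clone 5. A negative difference was found for 25 of the 32 (78.1%, beside 48.0% of all tested genes), and the median was -0.38, beside 0.01. *CDH1*, the gene of E-cadherin, was at 20.2 and 34.0 normalised counts in clone 4 and 85.9 and 82.2 in clone 5 (log2 difference -1.64 ± 0.31 SE, limma adjusted p = 0.00229). *ST14*, the epithelial protease matriptase, was at 258 and 216 against 766 and 738, and *CLDN7*, another claudin, at 19.2 and 24.8 against 64.7 and 62.6. *ESRP1*, an epithelial splicing factor, and *MAL2*, of apical transport, had differences of -2.38 and -1.40, and *CLDN1* is described above. *EPCAM* (-0.69), *SPINT1* (-0.97), *F11R* (-0.83), *ESRP2* (-0.55), *CLDN3* (-0.56) and *CLDN4* (-0.36) had adjusted p under 0.05 with a difference of less than 1. The epithelial count was 4 to 6 when any 1 WT library was left out.

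Of the called mesenchymal and EMT genes, most were higher in clone 4. Among 30 tested genes, 7 were called higher in clone 4 and 2 higher in clone 5 (30% called in all, beside 1.92% of all tested genes). A positive difference was found for 23 (76.7%, beside 52.0%), with a median of 0.33. The 7 encode collagens (*COL1A1*, *COL5A1*, *COL6A2*, *COL6A3*), the matrix protein SPARC, the matrix metalloproteinase MMP2 and the PDGF receptor β. *COL5A1* was at 61.7 and 37.7 normalised counts in clone 4 and at 13.5 and 1.96 in clone 5. It was also called between rounds A and B, higher in round A (limma adjusted p = 0.028). *MMP2* was higher in round A as well (limma adjusted p = 0.013), but its round difference was too small for a call. *SPARC* was at 2258 and 2343 normalised counts in clone 4 and 1282 and 934 in clone 5, *PDGFRB* at 166 and 261 against 68.5 and 64.6, and *MMP2* at 280 and 210 against 110 and 55.8. The 2 called genes in the other direction were *SNAI2* (29.3 and 31.2 against 66.6 and 84.2) and *TWIST2* (6.06 and 0.92 against 15.4 and 13.7), both transcription factors known for repressing epithelial genes; *TWIST2* was not called by edgeR or DESeq2. Other repressors of this kind were not called. *ZEB1* was at 1125 and 1255 in clone 4 and 1058 and 1108 in clone 5 (log2 difference 0.13 ± 0.09 SE, adjusted p = 0.48). *SNAI1* was at 149 and 158 against 147 and 157. *VIM* and *FN1* had differences of 0.21 and 0.36 (adjusted p = 0.087 and 0.053). The mesenchymal count fell from 9 to 4 without round A of clone 4, and to 4 without round B of clone 5. In the KO clones the median of this list was 1.10 to 1.23 above the mean of the 4 WT libraries on the log2 scale, and that of the epithelial list was -0.47 to -0.23 relative to it.

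Keratins form the intermediate filaments of epithelia, and the called keratin genes were higher in clone 4. Of 15 tested keratin genes, 3 were called (20%, beside 1.92% of all tested genes), 14 had a positive difference and the median was 0.60. The called members were *KRT4*, *KRT6A* and *KRT17*, keratins of stratified epithelia. *KRT6A* was at 228 and 253 normalised counts in clone 4 and at 79.2 and 18.6 in clone 5, and *KRT17* at 495 and 429 against 220 and 129. The call of *KRT4* ended without round B of either clone, and that of *KRT6A* with only the WT libraries in the fit. *KRT5*, *KRT7*, *KRT8*, *KRT18*, *KRT23* and *KRT86* had positive differences of 0.36 to 0.97 with adjusted p under 0.05. *KRT19* had a difference of 0.29 (adjusted p = 0.078). In *KRT5* the levels were 110483 and 105576 in clone 4 and 79897 and 63523 in clone 5.

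The called genes of EGF, FGF and MAPK feedback were lower in clone 4. Of 43 tested genes, 6 were called (13.95%, beside 1.92% of all tested genes) and all 6 were higher in clone 5, while the median of the list was -0.06. They comprise the EGF receptor ligands *AREG* and *EREG*, the receptor *ERBB3*, the feedback inhibitors *SPRY1* and *SPRED3*, and *ETV1*. *SPRY1* was at 22.2 and 24.8 normalised counts in clone 4 and 68.5 in both rounds of clone 5, and *EREG* at 16.2 and 7.35 against 57.9 and 41.1. Without round B of clone 5, 3 of the list were called.

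Of 35 tested WNT/β-CATENIN targets and feedback inhibitors, *PROX1* and *TDGF1* were called, both higher in clone 5 (5.71%, beside 1.92% of all tested genes), and the median was -0.16. An adjusted p under 0.05 was found for 8 of the 35 (22.9%, beside 8.86% of all tested genes), of which 6 were lower and 2 higher in clone 4. *AXIN2*, a feedback inhibitor often used as a readout of the pathway, was at 12213 and 11629 normalised counts in clone 4 and 11143 and 11049 in clone 5 (log2 difference 0.10 ± 0.10 SE, limma adjusted p = 0.64), and at 356 to 591 in the KO clones. *RNF43* (-0.44) and *SOX9* (-0.26) had adjusted p under 0.05 with lower values in clone 4, and *NR2F1* (0.47) and *NR2F2* (0.52) with higher ones. Of 47 ligands, receptors and core genes, *WNT10A* and *WNT16* were called, both higher in clone 5. *WNT16* was at 70.8 and 68.0 against 161 and 136. The calls of *TDGF1* and *WNT16* ended when any 1 WT library was left out.

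The other lists held up to 3 called genes each. Among 39 interferon-stimulated genes, *TRIM22*, *IFIT2* and *OAS1* were called higher in clone 5 (7.69%, beside 1.92% of all tested genes), 11 had an adjusted p under 0.05, all of them higher in clone 5, the median was -0.16, and clone 4 held at most 25.3 normalised counts of any of the 3. Among 28 basement membrane, laminin and integrin genes, *LAMB3* (268 and 254 in clone 4, 736 and 908 in clone 5) and *LAMA2* were called higher in clone 5 (7.14%). Of 39 TGF-β and BMP pathway genes, *BMP2*, a BMP ligand, was higher in clone 5 (18.2 and 14.7 against 114 and 68.5) and *LTBP2*, a binding protein of the extracellular matrix, higher in clone 4 (7358 and 7572 against 3932 and 3402). *EFNA5* and *EPHA1* of 14 ephrin and Eph genes (14.3%), *CEACAM1* of 18 gut differentiation genes, *CCND2* of 42 G1/S genes and *GABRA3* of 16 neuronal genes were higher in clone 5, and *PCDHB10* of 9 protocadherins higher in clone 4. The calls of *LAMA2*, *GABRA3* and *PCDHB10* ended without any 1 of the WT libraries, and that of *IFIT2* without round A of either clone and with a replicate block (adjusted p = 0.060 in limma and 0.052 in edgeR). No member was called among the HOX, cancer-testis, imprinted, MHC class I, NF-κB, Notch, p53 target, G2/M, glycolysis, cholesterol synthesis, metallothionein or ribosomal protein genes, or among the markers of other cell types. A negative difference was still found for 36 of 40 G2/M genes (90%, median -0.09) and 26 of 33 cholesterol and fatty acid synthesis genes (78.8%, median -0.10). Relative to the mean of the 4 WT libraries, the G2/M median was 0.08 and -0.18 in rounds A and B of clone 4. In clone 5 it was 0.12 and 0.01.

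**Figure D3:**
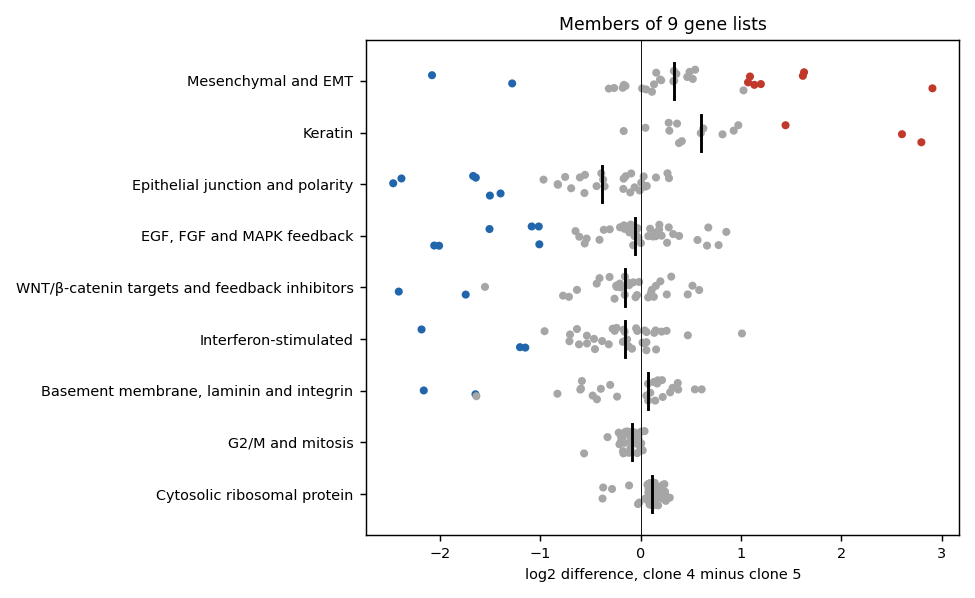
Log2 difference between WT clone 4 and WT clone 5 (x axis) of every tested member of 9 gene lists, with called genes in red (higher in clone 4) or blue (higher in clone 5), other members in grey and the median of each list as a black bar. The mesenchymal and keratin medians lie at 0.33 and 0.60, the epithelial median at -0.38, and the other 6 within 0.16 of 0.

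The difference between the clones also had a pattern along chromosomes. Chromosome 13 had a median difference of -0.31 over 297 tested genes and chromosome 14 of 0.16 over 553, while every other chromosome lay between -0.01 and 0.04. In running medians over 51 neighbouring tested genes, 7 runs passed 0.2 in size, a limit that was chosen after the values were seen. The runs held 633 genes, 3.93% of those with a position, and 276 of the 1130 genes (24.4%) that had an adjusted p under 0.05 with a log2 difference of 1 or less. Of the 312 called genes, 25 were in runs (8.01%). Positions are those of GENCODE genes on GRCh37, and the ends of a run are blurred by the window.

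Chromosome 13 was divided. From 22.2 to 53.3 Mb, 140 of 158 tested genes (88.6%) were lower in clone 4, with a median of -0.50, a ratio of 0.706. From 73.7 to 111.6 Mb, 67 of 75 genes (89.3%) were higher in clone 4, with a median of 0.42, a ratio of 1.34. Both rounds gave this pattern, with medians of -0.48 and -0.54 in rounds A and B for the first run and 0.41 and 0.50 for the second. In the first run, 8 genes were called higher in clone 5 and 1 higher in clone 4. Among those with a mean of at least 100 normalised counts, *SLC25A30*, a mitochondrial carrier, *PHF11* and *CDK8* had the largest differences. Some called genes with a lower mean differed more, among them *TUSC8* (-1.77), *SUCLA2-AS1* (-1.72) and *ATP8A2* (-1.61). *CDK8* encodes the Mediator kinase known as a coactivator of β-CATENIN. *CDK8* was at 1696 and 1561 normalised counts in clone 4 and 3187 and 3475 in clone 5 (log2 difference -1.03 ± 0.09 SE, limma adjusted p = 1.9e-06), and it was not called without round B of either clone. Chosen after their values were seen, the tumour suppressors *RB1* (-0.62) and *BRCA2* (-0.60) show the size that was usual for the run. *RB1* was at 3506 and 3483 in clone 4 and 5121 and 5613 in clone 5.

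The KO clones took different sides on chromosome 13. Relative to the mean of the 8 SW480 libraries, the median of the first run was -0.27 and -0.21 in clone 4, -0.26 and -0.24 in KO clone 17, 0.25 and 0.32 in clone 5, and 0.24 and 0.22 in KO clone 21. The second run had the opposite order, with 0.25 and 0.26 in clone 4, 0.25 and 0.18 in KO clone 17, -0.21 and -0.27 in clone 5, and -0.22 and -0.29 in KO clone 21. In each run KO clone 17 was at the level of clone 4 and KO clone 21 at that of clone 5, so 1 WT clone and 1 KO clone were on each side.

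On chromosome 14, clone 4 stood alone. From 68.1 to 105.2 Mb, 221 of 246 tested genes (89.8%) were higher in clone 4, with a median of 0.35 and a ratio of 1.28. The median relative to the 8 libraries was 0.28 and 0.29 in clone 4 and between -0.12 and -0.05 in the other 6 libraries. Of called genes in the run with a mean of at least 100 normalised counts, *EML1*, *PPP4R4* and *LTBP2* had the largest differences, all higher in clone 4. The call of *EML1* (limma adjusted p = 0.041) ended under 6 of the alternatives run, the replicate block among them (adjusted p = 0.062). *GALC*, with a lower mean, was the 1 called gene of the run higher in clone 5, beside 7 called higher in clone 4. Its values were 16.2 and 18.4 in clone 4 and 136 and 117 in clone 5 (log2 difference -2.80).

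Smaller runs lay on chromosomes 1 and 3. From 44.4 to 47.1 Mb on chromosome 1, 43 of 47 genes (91.5%) were lower in clone 4, with a median of -0.46, and here clone 5 stood alone, at 0.31 and 0.39 against -0.16 to -0.05 in the other 6 libraries. Of the 3 called genes of this run, all higher in clone 5, *HPDL* (-1.06) was the one with a mean of at least 100 normalised counts. It was not called without round A of clone 4 or round B of clone 5. *LINC01144*, at a lower mean, had a larger difference (-1.58). From 185.6 to 196.2 Mb on chromosome 3, 40 of 47 genes (85.1%) were lower in clone 4, with a median of -0.32, and clone 4 was the lowest clone at -0.24 and -0.22. *CLDN1* and *P3H2*, a collagen-modifying enzyme, lie in this run, with differences of -2.47 and -1.89 that are far beyond its median. Near the start of chromosome 1, from 1.2 to 1.6 Mb, 17 of 24 genes (70.8%) were lower in clone 4, with a median of -0.30.

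The run on chromosome 6, from 26.2 to 27.8 Mb, covers the main cluster of replication-dependent histone genes. Of its 36 genes, 30 were lower in clone 4, with a median of -0.32. Over all chromosomes, 27 of 28 tested genes of the clustered histone families were lower in clone 4 with a median of -0.50, and all 8 of those outside chromosome 6 were among them with a median of -0.42. The 21 other genes of the run had a median of -0.22. The values here were graded over the clones, from -0.59 and -0.58 in clone 4 to -0.24 and -0.12 in clone 5 and 0.23 to 0.47 in the KO clones, rather than falling into 2 levels. *H2BC6* was the 1 histone gene called. The libraries were made from poly(A) RNA, so these counts cover only histone transcripts captured that way. Total histone RNA was not measured.

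**Figure D4:**
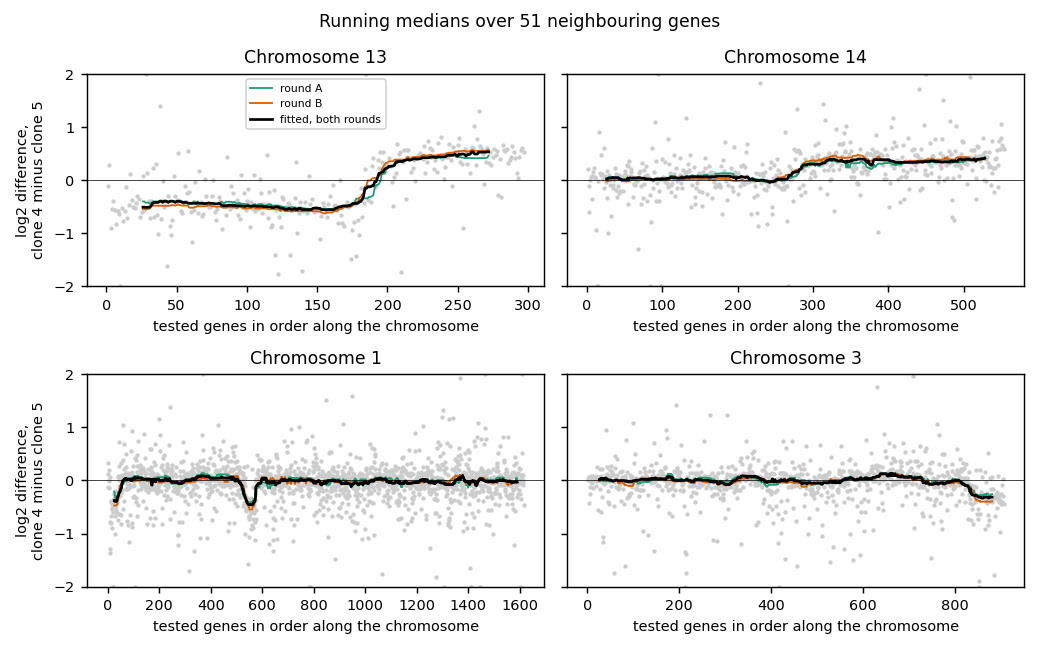
Log2 difference between WT clone 4 and WT clone 5 (y axis, cut at -2 and 2) of tested genes in their order along chromosomes 13, 14, 1 and 3 (x axis), with the running median over 51 genes from both rounds (black), round A (green) and round B (orange). Chromosome 13 steps from about -0.50 to 0.42, chromosome 14 from 0 to 0.35, and chromosomes 1 and 3 leave 0 in short stretches; both rounds follow the same course.

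Ribosomal protein genes are an example at high expression. Of 74 genes, 68 had a positive difference, with a median of 0.12. *RPL21*, which lies in the first run of chromosome 13, was lower in clone 4 (log2 difference -0.38, limma adjusted p = 0.00156). It was at 16218 and 16728 normalised counts in clone 4, 20549 and 22321 in clone 5, 12952 and 14090 in KO clone 17 and 23490 and 23811 in KO clone 21. *RPL35A*, which lies beyond the last full window of chromosome 3, had a difference of -0.28 (adjusted p = 0.0108).

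**Figure D5:**
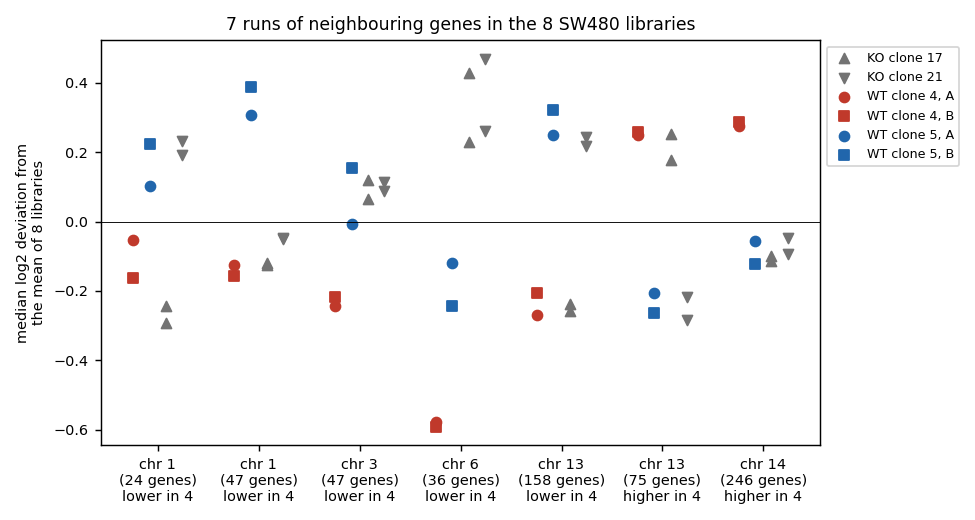
Median log2 deviation from the mean of the 8 SW480 libraries (y axis) over the genes of each of 7 runs (x axis, with chromosome, number of genes and direction), with 1 point per library (WT clone 4 red, WT clone 5 blue, KO clones grey). On chromosome 13 each KO clone sits with a different WT clone, while on chromosome 14 clone 4 stands apart at 0.28 and 0.29.

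By the same rule, running medians between the WT clones of HT29 gave 49 runs on 16 chromosomes with 2871 genes, and those of HCT116 gave 11 runs on 9 chromosomes with 175 genes. DNA was not measured in any of these clones, so whether the runs follow the number of chromosome copies was not tested.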

How the data were processed

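RNA-seq of 24 libraries was available, of which the 8 SW480 libraries entered the main comparison. Per the labels and the study's methods, total RNA was made into unstranded TruSeq v2 libraries, reads were aligned to GRCh37 with STAR 2.7.5b and counted per gene with featureCounts 2.0.1. The authors deposited per library a signal, the read count of each of 58051 gene identifiers divided by 1 size factor. Dividing by the smallest value gave whole reads (tolerance 0.01) for 100% of values. The rows follow a gene list that also holds GRCh38 scaffolds, so the annotation behind the counts may be newer than the stated build. Symbols and positions were matched by identifier to GENCODE v44 on GRCh37 (95.8% of identifiers); 37 mitochondrial identifiers held no read. Deposited tables of the authors' own KO against WT fold changes and p-values were not used.

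Genes that reached 10 normalised counts in 2 or more of the 4 WT libraries were tested with limma 3.58.1 (trend, robust) on log2(value + 1) with 1 mean per clone over the 8 SW480 libraries, clone 4 minus clone 5, with Benjamini-Hochberg adjustment over all 16275 genes; log2 differences on this scale understate those of low genes. R was 4.3.3. Alternatives used edgeR 4.0.16 and DESeq2 1.42.0 on recovered reads, other filters, pseudocounts and scalings, a replicate block, and fits without 1 library. With 2 libraries against 2, an exact permutation test cannot reach p = 0.05, so none was run. The test was checked on simulated data. Intervals of counting error were not computed, and PCR copies were not removed by molecular identifiers. The comparison, the 28 gene lists (1069 of 1074 symbols matched) and the rule for named genes were chosen with earlier results of these data known. The rule names the 12 called genes with the largest difference in each direction. These needed a mean of at least 100 and clones that do not overlap. It also names up to 4 called members of each list. Of each run it names up to 3 called genes with a mean of at least 100. The other called members of the epithelial, mesenchymal and EGF lists were named in addition after their values were seen. So were list members with an adjusted p under 0.05 that were not called, and some called genes of runs with a lower mean. Genes on the Y chromosome were not named. Promoter windows came from RefSeq, which held 37 of 51 named genes.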

Additional observations from a re-analysis of the deposited data

How the results depend on the processing

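The count of 312 genes stayed within 1.5 times under each setting that kept all libraries, from 214 (a value of at least 10 in each of 4 libraries) to 384 (no filter); edgeR called 336 and DESeq2 266. Leaving out 1 library gave 192 to 278 genes, with 58 to 138 higher in clone 4 and 134 to 193 higher in clone 5; the lowest totals came without round B of clone 5. Higher in clone 4 were 64 with the filter on each of 4 libraries. The letters name 2 rounds of the experiment, and whether libraries of a round were handled together is not given in the sources used here; the A minus B differences of the clones correlated at 0.094 across genes, and the replicate block called 321 genes (337 in edgeR). A pseudocount of 5 gave 12 genes for the rounds. In HT29, 1772 genes were called from the WT libraries alone and 461 to 501 without 1 library, sharing 26 to 33 with SW480. In HCT116, the replicate block called 438, sharing 19, and leaving out 1 library gave 91 to 138, sharing 5 to 8. Without 1 library, called members were 25 to 38 over all lists (edgeR 41), 4 to 8 in the mesenchymal, 4 to 6 in the epithelial, 3 to 4 in the keratin and 3 to 5 in the EGF list; these list counts, and other limits on runs (7 at 0.15, 9 at 0.3, 8 with 31 genes), were added after the data were seen. The chromosome 13 median was -0.32 with TMM, -0.39 for genes of at least 100 and -0.36 to -0.26 without 1 library. Without 1 library its runs were -0.57 to -0.44 and 0.41 to 0.47, the chromosome 3 run -0.41 to -0.29 and the chromosome 6 run -0.32 to -0.27; the chromosome 6 run was -0.25 for genes of at least 100. Of 58 named genes called, none reversed and 32 were called under each alternative run; the rest lost the call in 85 of 855 pairs, most by leaving out a library. The causes were not tested. The 58 genes are those named by the rule, and called genes named in addition were not followed through the alternatives one by one. Depth limits genes near the filter.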

Other observations

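Some called genes outside the lists, chosen after their values were seen, show how the 4 SW480 clones differed from each other. *PDE2A*, a cyclic nucleotide phosphodiesterase, was at 167 and 106 normalised counts in clone 4 and 24.1 and 8.81 in clone 5, and at 1500 and 1477 in KO clone 17 but 40.2 and 49.9 in KO clone 21. *PLPPR4* was at 7.08 and 8.27 in clone 4, at 193 and 171 in clone 5, and at 0 in all 4 libraries of the KO clones. *KCNJ5*, an inward rectifier potassium channel, was at 1132 and 1181 in clone 4 and at 3183 and 3184 in clone 5, above the 146 to 220 of the KO clones. *MDK*, the growth factor midkine, was at 1875 and 1419 in clone 4 and 3954 and 3791 in clone 5, with 4659 to 5096 in the KO clones. *IGFBP3* was at 2284 and 1966 in clone 4 against 925 and 665 in clone 5, and the KO clones differed as well, at 2825 and 3090 in clone 17 and 13859 and 12478 in clone 21.

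Of the 312 called genes, 276 were protein-coding and 26 were long non-coding RNAs. At most 3 reads in each library were counted for 13 of them in clone 4 and for 3 in clone 5 (*GDF7*, *SLC35D3* and *EMX2*).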
